A study of Mus musculus with 8 samples.

Results

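The genes described here are Nfil3 and 9 genes of the circadian clock, Dbp, Arntl, Per1, Per2, Per3, Cry1, Cry2, Nr1d1 and Nr1d2, taken by name from a table of 54532 genes. All 10 were found, and all 10 were among the 14723 genes that passed the filter on low counts and were tested. Nfil3 was chosen by its own values, because they did not overlap between the plasmids compared, so its difference between plasmids is given as a description with no test. The cells were cardiac fibroblasts of C57BL/6 mice at passage 2. In 1 group of 4 libraries they had received pAAV.CMV.SV40.THBS4-HA, a plasmid in which the CMV promoter drives HA-tagged murine Thbs4, the gene of the matrix protein thrombospondin-4 (TSP-4). In the other group of 4 libraries they had received pAAV-CA without an insert, per the labels, so the groups differ in the plasmid backbone as well as in Thbs4. All cells spent 12 h in standard medium without antibiotics and then 24 h without serum before RNA was taken. Each group has libraries with the letters A, B, C and D, and the labels neither say what a letter marks nor tie the libraries to different mice or dishes. P-values then measure only the spread between these libraries, which may be technical.

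The circadian clock is a loop of transcription and repression that runs in most cells, cardiac fibroblasts among them. ARNTL (also called BMAL1) and its partner CLOCK bind E-boxes and switch on the Period (Per) and Cryptochrome (Cry) genes, whose proteins return to the nucleus and repress ARNTL and CLOCK. A second loop runs through the nuclear receptors REV-ERB alpha (Nr1d1) and REV-ERB beta (Nr1d2), which repress Arntl and Nfil3 at sites that hold the half-site bound by the ROR activators. Another loop runs through the D-box, where the activator DBP and the repressor NFIL3 (also called E4BP4) compete for the same sequence. Serum, glucocorticoids and cAMP can set the phase of this clock in cultured fibroblasts. All libraries have the same time after serum withdrawal, so the phase of the clock was not measured.

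The promoters of the listed genes were searched for the sequences of these loops. RefSeq start windows on GRCm38.p6, from 250 bases before to 50 after the start, were matched for 9 of the 10 genes, with 11 windows. Per2 had no window and was not searched. Both strands were searched for the E-box, which reads CACGTG, and for a variant that reads CACGTT or, from the other strand of the promoter, AACGTG. The D-box was searched for as TTATGTAA and, in a second form, as TTACGTAA. The half-site reads AGGTCA or, from the other strand of the promoter, TGACCT, and the cAMP response element reads TGACGTCA. No match overlapped another. The stretches below are shown as examples of a match for each of the 3 loops, from 6 of the 8 listed genes with a match. The share of all windows with any of these matches was not computed, so that count is not set against other genes. The stretches are written 5′ to 3′ on the strand of the gene, with the match in capitals.
Nfil3 (chr13:52981034-52981063, minus strand, half-site): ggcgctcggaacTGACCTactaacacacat
Per3 (chr4:151044790-151044896, minus strand, 2 D-boxes): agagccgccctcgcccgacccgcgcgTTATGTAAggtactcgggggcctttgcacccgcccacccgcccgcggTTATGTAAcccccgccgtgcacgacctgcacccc
Cry1 (chr10:85185083-85185159, minus strand, variant E-box and E-box): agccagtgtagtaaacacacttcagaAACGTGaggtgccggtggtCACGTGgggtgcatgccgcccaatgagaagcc
Nr1d1 (chr11:98775388-98775417, minus strand, variant E-box): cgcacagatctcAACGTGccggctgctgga
Nr1d2 (chr14:18239152-18239209, minus strand, half-site): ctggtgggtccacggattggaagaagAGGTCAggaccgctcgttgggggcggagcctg
Per1 (chr11:69098757-69098843, plus strand, E-box and half-site): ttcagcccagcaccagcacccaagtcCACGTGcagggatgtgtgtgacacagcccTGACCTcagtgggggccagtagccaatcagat

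Of the 9 genes searched, which leave out Per2, Per3 was the gene with D-boxes in its window. It had 2 of the same letters, TTATGTAA. That D-box was present in 0.938% of all 32851 windows searched, and TTACGTAA in 0.119%. The E-box was present in 7.15% of windows, its variant in 4.68%, the half-site in 16.3% and the cAMP response element in 1.79%. Cry2 also had a variant E-box, and the second of 2 windows of Arntl a half-site. The Dbp window, the first Arntl window and the second Per1 window held none of these letters, which says nothing about sites elsewhere in those genes. A match is a description of the sequence, and binding was not measured.

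Depth ran from 17123735 to 22530947 counts per library. Thbs4 had 25754 to 38063 counts in the 4 TSP-4 libraries and 2 to 11 in the 4 empty plasmid libraries, as the labels say. Of the fibroblast markers, 10 of 10 were tested. Of 7 cardiomyocyte markers only Tnnt2 passed the filter. The 12 macrophage markers were all tested. Their summed level ran from 318 to 1812 CPM (counts scaled to library size) with the TSP-4 plasmid and from 349 to 1463 CPM with the empty plasmid. It was lowest in letter A and highest in letter C with both. The 6 endothelial markers were also all tested, at a summed 33.8 to 54.4 CPM with the TSP-4 plasmid and 35.1 to 54.0 CPM with the empty plasmid. Of 6 pericyte and smooth muscle markers 4 were tested.

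The listed genes were all transcribed at low to moderate levels. On the FPKM scale (fragments scaled to gene length and to library depth), Nr1d1 was the highest, with a mean of 15.6 over the 8 libraries (range 13.7 to 19.4). Nfil3 followed with a mean FPKM of 14.2 (range 12.5 to 15.8), and Nr1d1 exceeded it in 6 of 8 libraries. These 2 genes ranked 3367 and 3654 by FPKM among the 14723 tested genes, and both encode repressors. Nr1d2 had a mean FPKM of 6.39, and its range overlapped neither that of Nfil3 above it nor that of Per1 below it.

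The Period and Cryptochrome genes lay below the REV-ERB genes. Per1 had a mean FPKM of 5.33 and Cry2 of 5.08, and their ranges overlapped. Arntl at 3.35, Cry1 at 3.30 and Dbp at 3.16 could not be ordered, since the ranges of neighbours overlapped and each exceeded the next in 4 of 8 libraries. Per3 at 1.59 and Per2 at 1.29 were the lowest of the 10, with overlapping ranges, and no library of either reached the lowest value of Dbp. Per2 ranked 11123 among the tested genes.

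**Figure D1:**
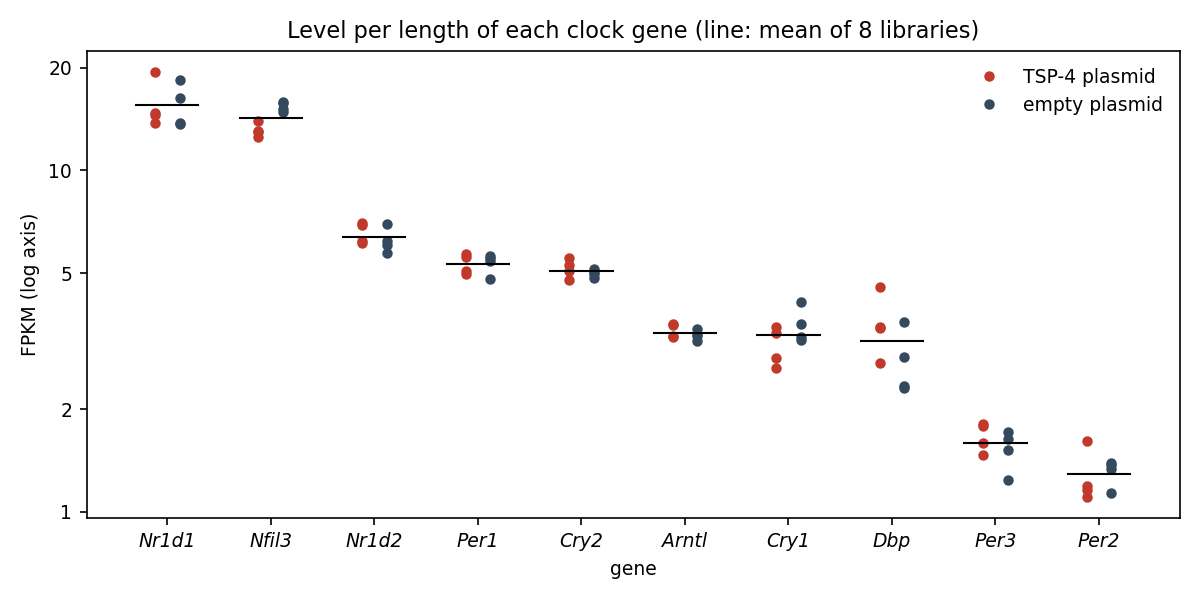
Level per length of the 10 listed genes, in FPKM on a log axis, 1 point per library (TSP-4 plasmid left, empty plasmid right) with the mean of the 8 libraries as a line. Nr1d1 and Nfil3 lie between 12.5 and 19.4 FPKM, and Per3 and Per2 between 1.11 and 1.81 FPKM.

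The first comparison was between the plasmids and asked whether the clock genes differ with Thbs4 overexpression. Across all genes, edgeR's quasi-likelihood test called 1 of 14723 at an adjusted p under 0.05 (0.00679%), which was Thbs4 itself. None of the other 9 listed genes was called, and each had an edgeR adjusted p of 1.00. At an unadjusted p under 0.05 edgeR listed 235 of all genes, DESeq2 142 and limma 266, and none of the 9 was among edgeR's. That count was 626 without the TSP-4 library D. It was 1196 with the letters as a block, a fit that compares the plasmids within letters, and Dbp was then among them. The median log2 difference of the 9 genes (TSP-4 minus empty) was 0.04, with 6 above 0 and 3 below, and that of all tested genes was -0.00014, with 7354 above and 7369 below.

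Of the D-box pair, Nfil3 (chromosome 13, 52967209 to 52981073, minus strand) encodes the repressor. With the TSP-4 plasmid it stood at 25.4, 26.5, 26.4 and 28.4 CPM in letters A to D. With the empty plasmid it stood at 30.01, 30.9, 32.2 and 32.2 CPM. All 4 TSP-4 libraries lay below all 4 empty plasmid libraries, which is how the gene was chosen. Its means were 26.7 ± 1.26 and 31.3 ± 1.07 CPM (SD, n = 4 each), a log2 difference of -0.23 or 0.85-fold. Within letters A to D the log2 difference was -0.24, -0.22, -0.29 and -0.18. The gap between its highest TSP-4 and lowest empty plasmid library was 0.081 on the log2 scale, and 127 of all tested genes (0.863%) lay entirely lower with the TSP-4 plasmid and 96 (0.652%) entirely higher. Taking either direction, the listed genes next outside that limit were Arntl and Cry1. Their overlaps were 0.080 and 0.116 on the log2 scale. That of Cry1 was in the direction of Nfil3, and that of Arntl was toward higher with the TSP-4 plasmid. By the same measure Cry2 stood at 0.117, but its empty plasmid range (30.9 to 32.6 CPM) lay within its TSP-4 range (30.05 to 35.1 CPM).

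Dbp (chromosome 7, 45705088 to 45710203, plus strand) encodes the activator of the pair. With the TSP-4 plasmid it stood at 10.3, 13.7, 10.4 and 8.20 CPM in letters A to D. With the empty plasmid it stood at 8.50, 10.9, 7.08 and 6.93 CPM. The groups overlapped, but within each of the 4 letters the TSP-4 library was the higher, by 0.27, 0.33, 0.55 and 0.24 on the log2 scale. Of all tested genes, 8.03% were higher in all 4 letters and 8.04% lower in all 4. Of the 9 listed genes besides Nfil3, Dbp was the only 1 higher in all 4, and 0 were lower in all 4. Nfil3 was lower in all 4 by the way it was chosen. The means of Dbp were 10.7 ± 2.27 and 8.36 ± 1.84 CPM (SD, n = 4 each). The log2 difference was 0.35 ± 0.19 (SE) with a 95% interval from -0.08 to 0.78. edgeR gave an unadjusted p = 0.0981 and an adjusted p of 1.00, so this difference did not pass the test. With the letters as a block the log2 difference was 0.35 ± 0.096 (SE), with an edgeR unadjusted p = 0.00284 and an adjusted p = 0.419, which did not pass either. Dbp had 133 to 240 counts per library, and it shares 539 of its 2993 exonic bases (18.0%) with Sphk2 on the opposite strand. The strand setting of the counting is not given in the sources used here, so how reads from the shared bases were counted is not known. Sphk2, which encodes a sphingosine kinase, had a log2 difference of -0.00.

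**Figure D2:**
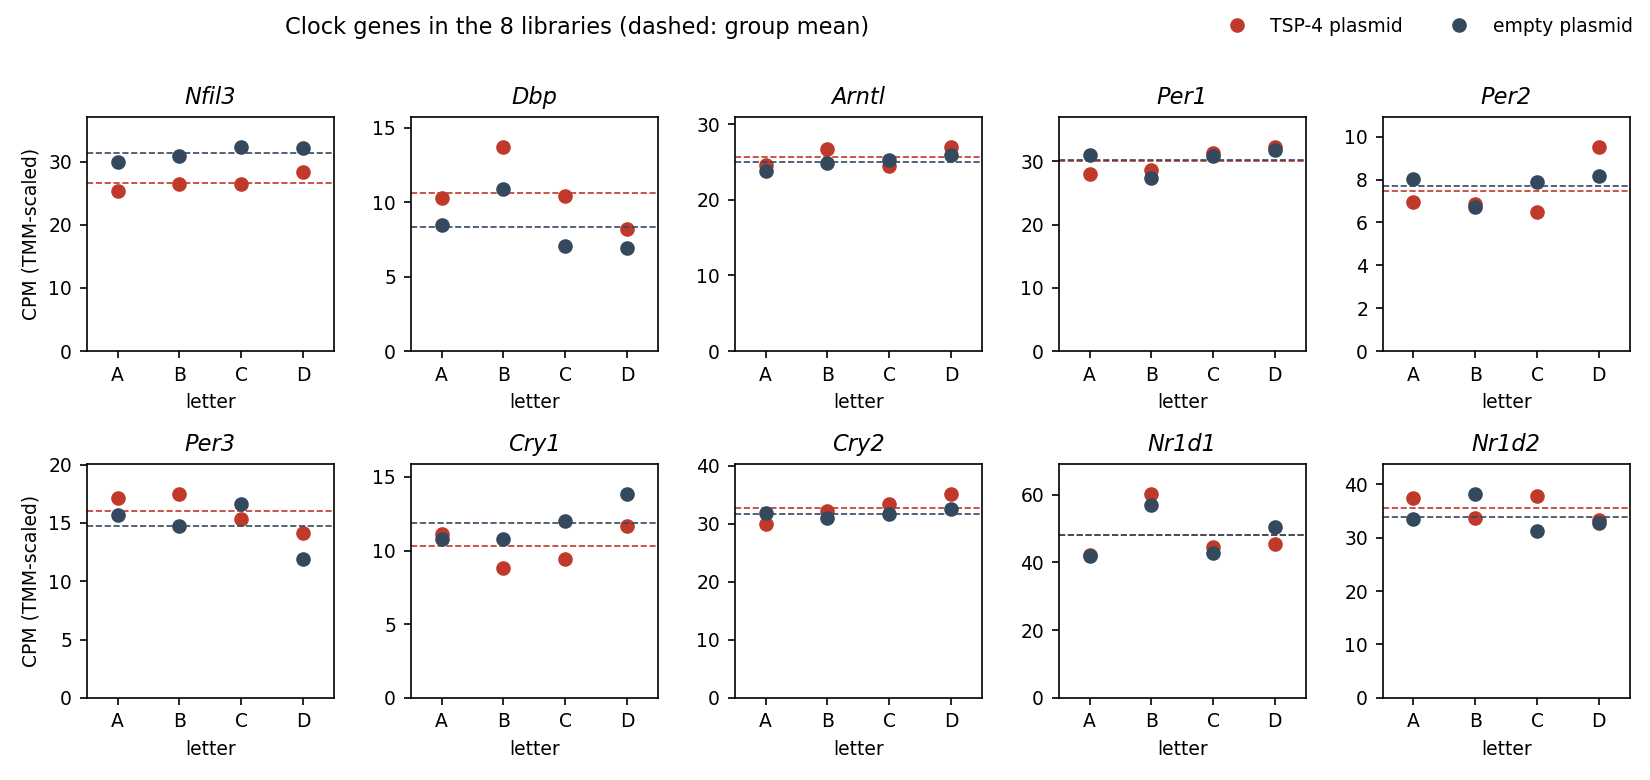
CPM of each listed gene in the 8 libraries by letter (x axis), with the mean of each plasmid group as a dashed line and the y axis from 0. Nfil3 is the gene whose TSP-4 points (25.4 to 28.4 CPM) all lie below its empty plasmid points (30.01 to 32.2 CPM), and Nr1d1 and Dbp stand highest in letter B with both plasmids.

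Arntl (chromosome 7, 113207465 to 113314126, plus strand), the activator of the core loop, was nearly level across libraries. It stood at 24.5, 26.6, 24.5 and 26.9 CPM with the TSP-4 plasmid and at 23.8, 24.9, 25.2 and 25.9 CPM with the empty plasmid. The groups overlapped, and the log2 difference was 0.04, with a 95% interval from -0.10 to 0.18.

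The 3 Period genes, repressors of the core loop, did not differ together. Per1 (chromosome 11, 69095217 to 69109960, plus strand), which responds to serum and cAMP, stood at 27.98 to 32.2 CPM with the TSP-4 plasmid and 27.4 to 31.8 CPM with the empty plasmid. Its log2 difference was -0.01 (95% interval -0.17 to 0.15). Per2 (chromosome 1, 91415982 to 91459324, minus strand) stood at 6.95, 6.85, 6.50 and 9.50 CPM with the TSP-4 plasmid and at 8.03, 6.72, 7.90 and 8.19 CPM with the empty plasmid. Library D with the TSP-4 plasmid lay above the other 7 libraries, and the log2 difference was -0.05 (95% interval -0.37 to 0.27). Per3 (chromosome 4, 151003652 to 151044665, minus strand), the gene with D-boxes shown above, stood at 17.1, 17.5, 15.3 and 14.2 CPM with the TSP-4 plasmid and at 15.7, 14.7, 16.7 and 11.9 CPM with the empty plasmid. Its TSP-4 library was the higher in letters A, B and D and the lower in C, and the log2 difference was 0.12 (95% interval -0.15 to 0.38), or 0.03 without the empty plasmid library D.

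Of the Cryptochromes, the repressors that act with the Period proteins, Cry1 (chromosome 10, 85131700 to 85185064, minus strand) stood at 11.2, 8.84, 9.45 and 11.7 CPM with the TSP-4 plasmid. With the empty plasmid it stood at 10.8, 10.8, 12.0 and 13.8 CPM. The TSP-4 library was the lower in letters B, C and D and slightly the higher in A, and the groups overlapped. The log2 difference of Cry1 was -0.20 ± 0.13 (SE), with a 95% interval from -0.49 to 0.08 and an edgeR unadjusted p = 0.136 and adjusted p of 1.00. With the letters as a block it was -0.20 ± 0.094 (SE), with an edgeR unadjusted p = 0.0502 and an adjusted p = 0.615. Cry2 (chromosome 2, 92403646 to 92434043, minus strand) stood at 30.05 to 35.1 CPM with the TSP-4 plasmid and 30.9 to 32.6 CPM with the empty plasmid. Its log2 difference was 0.04 (95% interval -0.10 to 0.18).

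The REV-ERB genes did not differ beyond their spread either. Nr1d1 (chromosome 11, 98767932 to 98775333, minus strand) stood at 42.3, 60.1, 44.7 and 45.5 CPM with the TSP-4 plasmid and at 42.0, 57.0, 42.8 and 50.4 CPM with the empty plasmid. Its spread within each plasmid was wide and followed the letter, while the log2 difference between plasmids was 0.00 (95% interval -0.30 to 0.31). Nr1d2 (chromosome 14, 18204054 to 18239127, minus strand) stood at 37.4, 33.8, 37.9 and 33.3 CPM with the TSP-4 plasmid. With the empty plasmid it stood at 33.4, 38.1, 31.3 and 32.7 CPM, with a log2 difference of 0.07 (95% interval -0.10 to 0.25). The letters in which Nr1d2 was high differed between the plasmids, unlike those of Nr1d1.

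**Figure D3:**
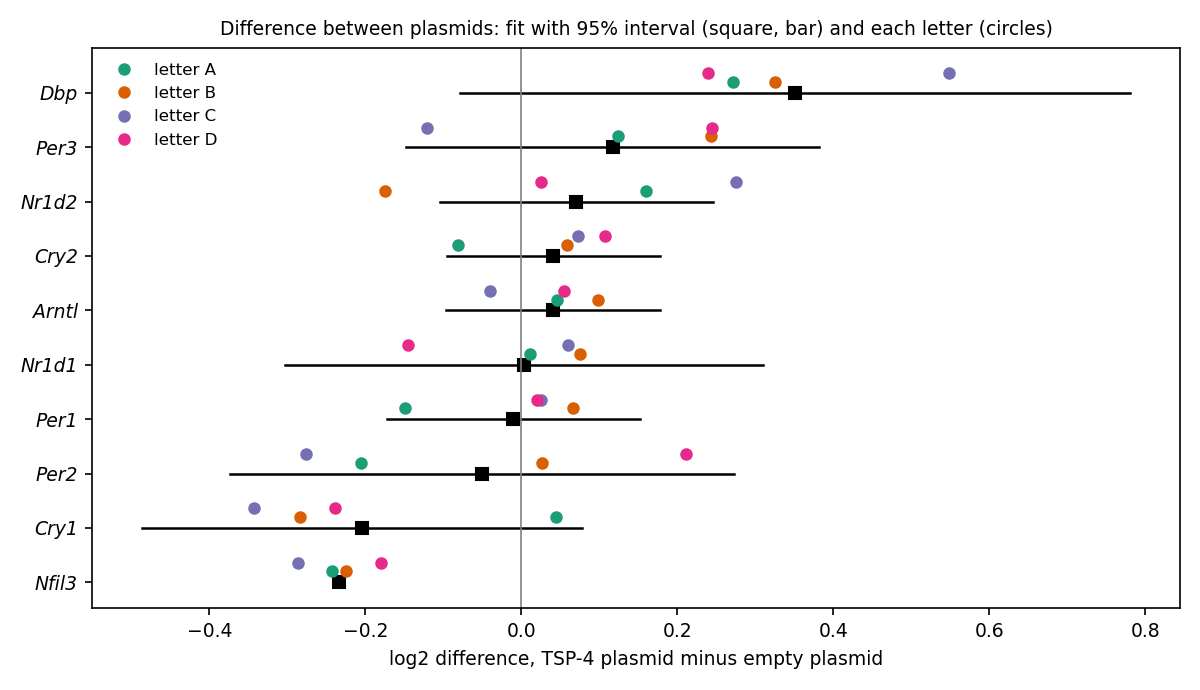
Log2 difference between plasmids (TSP-4 minus empty) of each listed gene, as the fitted value (square) with its 95% interval (bar) and the difference within each letter (circles). Nfil3 has no bar because it was chosen on this difference, and every interval shown, from the fit without the letters as a block, includes 0.

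The second comparison was between the letters, with the plasmid as a covariate. It is another contrast than the one by which Nfil3 was chosen, on the same 8 libraries. edgeR's quasi-likelihood test called 2 of the 10 listed genes, Nr1d1 and Dbp, against 4134 of all tested genes (28.1%). In tests on simulated data this test made more false calls than its nominal share. The median span between the highest and lowest letter means was 0.26 on the log2 scale for the 10 genes and 0.30 for all tested genes, so the listed genes as a list did not vary more than others. The same letter was highest with both plasmids for 7 of the 10 genes, against 47.9% of all tested genes. That letter was D for 5 of them, Arntl, Per1, Per2, Cry1 and Cry2, against 13.1% of all tested genes. It was B for Nr1d1 and Dbp, against 11.9%. Of the 5 genes highest in D, none was called, and their edgeR adjusted p ran from 0.175 to 0.592.

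Nr1d1 was highest in letter B, at 60.1 and 57.0 CPM, above the 6 other libraries, which lay from 42.0 to 50.4 CPM. Its span of letter means was 0.47 on the log2 scale or 1.39-fold (edgeR adjusted p = 0.000779), and it was lowest in letter A with both plasmids. Dbp was also highest in letter B, with 13.7 and 10.9 CPM, and lowest in letter D, with 8.20 and 6.93 CPM. Its span was 0.70 or 1.62-fold (edgeR adjusted p = 0.00758). Both calls rest on letter B: without its libraries the edgeR adjusted p was 0.193 for Nr1d1 and 0.281 for Dbp. The call of Dbp was also lost without the TSP-4 library B (adjusted p = 0.0540), the TSP-4 library D (0.0510) or the empty plasmid library B (0.0566), and with DESeq2 (0.0643) or without the plasmid term (0.0675), while the span stayed between 0.63 and 0.71 in these.

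Values that moved with the letters stand beside these results. Of the macrophage markers, 11 of 12 were called between letters, and their summed level was 318 and 349 CPM in letter A, 797 and 1072 in B, 1812 and 1463 in C, and 794 and 659 in D (TSP-4 and empty plasmid). Of the fibroblast markers, 8 of 10 were called, and their summed level was highest in letter B with both plasmids, at 18100 and 18660 CPM, and lowest in letter D, at 13360 and 13030 CPM. Of the endothelial markers, 3 of 6 were called, and of the 4 tested pericyte and smooth muscle markers 0. The 1 tested cardiomyocyte marker was called. Of all tested genes, 28.1% were called between letters. In these bulk libraries fewer cells of a type and less RNA per cell cannot be told apart, and the part of the cell mixture in the letter results was not tested. Nr1d1 shares 263 of its 3077 exonic bases (8.55%) with Thra, the thyroid hormone receptor gene on the opposite strand. Thra was likewise highest in letter B, with 30.3 and 30.2 CPM, and lowest in D, with 17.2 and 20.1 CPM (edgeR adjusted p = 0.00284), and its part in the Nr1d1 result was not tested. Sphk2, which overlaps Dbp, was highest in letter C with both plasmids and was not called (edgeR adjusted p = 0.0548).

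The other 8 listed genes were not called between letters. Per3 came nearest, with a span of 0.33, its lowest value in letter D with both plasmids, and an edgeR adjusted p = 0.121. Cry1 had a span of 0.38 and lay lowest in letter B and highest in letter D with both plasmids, the reverse of Dbp (edgeR adjusted p = 0.175). Per2 had the same span of 0.38, which was 0.19 without the TSP-4 library D and 0.56 without the empty plasmid library D. The span was 0.19 for Per1 and 0.13 each for Nfil3, Arntl and Cry2. Nr1d2 had a span of 0.12 (edgeR adjusted p = 0.727), which was 0.28 without the TSP-4 library B, 0.21 without the TSP-4 library C and 0.19 without the empty plasmid library C.

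**Figure D4:**
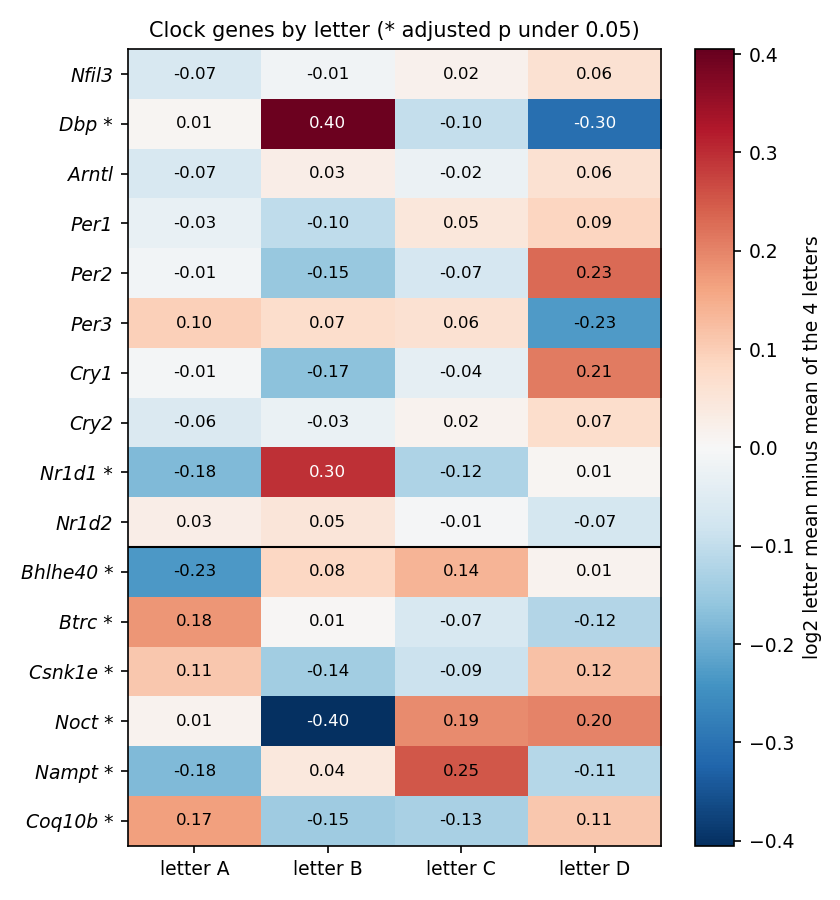
Log2 letter mean (over both plasmids) minus the mean of the 4 letters, for the 10 listed genes and, under the line, 6 other clock genes called between letters. Dbp (0.40) and Nr1d1 (0.30) are high in letter B, where Noct is low (-0.40), and Per2 (0.23) and Cry1 (0.21) are high in letter D.

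The clock machinery around the listed genes was read from a list of 26 other clock genes, of which 24 were tested. Rorb and Hlf were too low. None of the 24 was called between plasmids by edgeR, their log2 differences ran from -0.40 to 0.34, and the median was 0.02, with 13 above 0 and 11 below. The smallest unadjusted edgeR p-values belonged to Noct (0.0559), Npas2 (0.242) and Tef (0.286). Noct, which encodes the rhythmic phosphatase Nocturnin, stood at 31.7, 26.1, 33.5 and 41.1 CPM with the TSP-4 plasmid and at 44.8, 31.1, 52.9 and 45.9 CPM with the empty plasmid. It was the lower in all 4 letters, although the groups overlapped, with a log2 difference of -0.40 ± 0.18 (SE). With the letters as a block its edgeR unadjusted p = 0.000278 and its adjusted p = 0.326. Npas2, which can stand in for CLOCK, had a mean of 1.28 ± 0.159 against 1.02 ± 0.328 CPM (SD, n = 4 each). Tef, a D-box activator related to DBP, had 56.8 ± 4.67 against 53.6 ± 3.42 CPM (SD, n = 4 each). It was the higher in all 4 letters, by 0.22, 0.03, 0.06 and 0.0092 on the log2 scale in letters A to D. Of the 24 genes, 1 was higher in all 4 letters and 1 lower, against 8.03% and 8.04% of all tested genes.

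Between letters 6 of the 24 were called by edgeR, a share near the 28.1% of all tested genes. Noct was lowest in letter B with both plasmids, with a span of 0.61 (edgeR adjusted p = 0.00493). Nampt, whose enzyme makes an NAD precursor under clock control, had a span of 0.43 and was highest in letter C with both plasmids (edgeR adjusted p = 0.00447). Bhlhe40, a repressor at E-boxes, had a span of 0.37 (edgeR adjusted p = 0.0484), and Coq10b, a rhythmic output gene, one of 0.31 (edgeR adjusted p = 0.00369). Btrc, which encodes a ubiquitin ligase subunit that targets the Period proteins, had a span of 0.30, and Csnk1e, the casein kinase 1 epsilon gene, one of 0.26. The count was 3 with DESeq2 and 3 without the TSP-4 library D, and from 4 to 8 without any other single library. Csnk1d, whose kinase phosphorylates the Period proteins, and Nono, a cofactor of theirs, were the highest of the list per length, with mean FPKM of 35.95 and 35.6 over the 8 libraries.

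The genes whose pattern was most like that of Nfil3, Dbp and Arntl were found by Pearson's r of log2 CPM over the 8 libraries, among 13494 genes with a mean of at least 1 CPM. The libraries pair by letter and are few, so r is a description. For Nfil3 they were Nol8 (0.976), Gm13597 (0.974), Nat8f4 (0.960), Nt5c3b (0.957) and Mphosph10 (0.936). Nol8 stood at 28.2 to 29.5 CPM with the TSP-4 plasmid and 30.9 to 32.2 CPM with the empty plasmid. Nfil3 was chosen by such a separation of the plasmids, so genes picked for likeness to it tend to share it. For Dbp they were Spon1 (0.978), Frs2 (0.9697), Tm2d3 (0.966), Tmem175 (0.960) and Cdc25c (0.955). Spon1 was, like Dbp, highest in letter B and lowest in letter D with both plasmids, at 6.90 and 5.83 against 4.78 and 4.38 CPM. For Arntl they were Creb3l4 (0.963), Ino80c (0.958), Zfp740 (0.931), Coasy (0.927) and Rbpms2 (0.920). No listed gene was among these, and among the listed genes r with Dbp was -0.88 for Cry1, -0.72 for Per2, -0.70 for Nfil3, -0.68 for Per1, -0.23 for Cry2, 0.03 for Arntl, 0.56 for Per3, 0.57 for Nr1d1 and 0.61 for Nr1d2.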

How the data were processed

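Poly(A) RNA was sequenced after library preparation with NEBNext Ultra reagents, per the labels' protocols. Per the submitters' processing notes, CASAVA, TopHat2 2.0, Cufflinks 2.1.1 and HTSeq 0.6.1 were used with mm10 and GRCm38.p6. The role of each tool, the strand setting and the annotation release were not given in the sources used here. The authors deposited whole-number counts per gene and FPKM values, which follow from these counts, the gene lengths and 1 scaling constant per library. Gene coordinates are those of the deposited table and equal GENCODE M21 on GRCm38.

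Counts were tested with edgeR 4.0.16 in R 4.3.3 (quasi-likelihood, robust, TMM, filterByExpr with a minimum count of 10, Benjamini-Hochberg at 0.05 over all 14723 genes). The first fit had the plasmid as its term and left out the letters. The second tested the 3 letter terms with the plasmid as covariate. In the first fit spread between letters counts as error, so its intervals are wide for genes that follow the letter. The SE of Nr1d1 was 0.135 there and 0.052 with the letters as a block. CPM values are scaled by TMM factors. Alternatives used DESeq2 1.42.0, limma 3.58.1 (voom on counts, and log2 of FPKM plus 1 or 0.1), other size factors, no filter, a letter block and left-out libraries. In tests on simulated data the share of false calls of the letter test was above its nominal level. Deviations from group means of same-letter libraries correlated across genes with r from 0.508 to 0.651, and those of different letters from -0.57 to 0.323, so libraries were taken as paired by letter, on the data alone.

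The members and gene lists were chosen with earlier results of these data known. Named are all 10 listed genes, Thbs4, of the wider clock list the genes called (at most 6), the 3 with the smallest p between plasmids and the 2 highest in FPKM, of the entrainment list the 3 with the widest letter span and Fos, and the 5 genes most like Nfil3, Dbp and Arntl. Sphk2 and Thra were added for their overlap.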

Additional observations from a re-analysis of the deposited data

Results flagged for a closer look

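In 40 named genes, 80 groups of 4 libraries were examined for a library far from the other 3, and 3 were found. Chance gives about 5%. Per2 in the TSP-4 library D stood at 9.50 CPM, against 6.50 to 6.95 CPM in the other 3 libraries of that plasmid, a gap of 0.850 of the group's range. Nono, a cofactor of the Period proteins, was low in the same library, at 148 CPM against 158 to 159 CPM, a gap of 0.855 of the range. In the empty plasmid library B, Nono was high, at 170 CPM against 151 to 154 CPM, a gap of 0.831 of the range.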

How the results depend on the processing

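Between plasmids, none of the 9 listed genes besides Nfil3 and none of the 24 other clock genes was called in any of 17 alternatives. With a replicate block for the letter, edgeR called 2 genes, Thbs4 and Ybx3. The block called 5 without letter A, 4 without letter B and 2 without letter C, so the count of 1 depends on the block, which changed no call of a clock gene. Between letters, DESeq2 called 2716 genes, 1 of the 10 listed and 3 of the 24 others. Without the plasmid term 1 listed gene was called, and without the libraries of letter B 0. With 1 library left out the listed count ran from 1 to 2 and the other from 3 to 8. Fitted plasmid differences near 0 changed sign. That of Per1 ran from -0.054 to 0.024 with 1 library left out and was 0.039 in the block without letter A. That of Per2 ran from -0.19 to 0.013 and was 0.012 in the block without letter C. That of Nr1d1 ran from -0.12 to 0.10 and was -0.00041, -0.026 and -0.016 in the block without letters A, B and C. The cause was not tested. Nfil3 was chosen on this difference, so its unchanged sign in 19 of 19 alternatives is no support. Its difference ran from -0.27 to -0.21 with 1 library left out. That of Dbp ran from 0.21 to 0.50, that of Cry1 from -0.27 to -0.12, that of Per3 from 0.03 to 0.18, that of Arntl from 0.02 to 0.07, that of Cry2 from 0.0048 to 0.08 and that of Nr1d2 from 0.03 to 0.13. Per2 and Dbp had the fewest counts of the listed genes, from 110 per library, which limits their precision.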

Other observations

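Of 12 genes of glucocorticoid and cAMP signalling, pathways that can set the clock of cultured cells, 11 were tested (Zbtb16 was too low). None was called between plasmids by edgeR, and their median log2 difference (TSP-4 minus empty) was -0.07, with 3 above 0 and 8 below. Fos, an immediate early gene, stood at 7.26, 9.58, 8.57 and 8.93 CPM with the TSP-4 plasmid and at 10.3, 11.02, 12.4 and 9.75 CPM with the empty plasmid. Of the 11, Fos was the only 1 whose groups did not overlap, which also puts it lower in 4 of 4 letters. Its log2 difference was -0.34 ± 0.12 (SE) (edgeR unadjusted p = 0.0175, adjusted p of 1.00). With the letters as a block the edgeR unadjusted p = 0.00446 and the adjusted p = 0.425. Lower in all 4 letters were 3 of the 11, Fos among them, and 1 was higher in all 4. Of all tested genes, 0.863% lay entirely lower with the TSP-4 plasmid and 8.04% were lower in all 4 letters. Between letters 4 of the 11 were called by edgeR, against 28.1% of all tested genes. Sgk1, which encodes a kinase induced by serum and glucocorticoids, was lowest in letter A with both plasmids, at 69.9 and 89.5 CPM, and highest in letter D, at 143 and 142 CPM, a span of 0.85 (edgeR adjusted p = 9.97e-05). Tsc22d3, the glucocorticoid-induced leucine zipper gene, was highest in letter A with both plasmids, at 15.8 and 14.8 CPM, with a span of 0.61 (edgeR adjusted p = 0.00630). Egr1, another immediate early gene, had a span of 0.52 (edgeR adjusted p = 0.00284) and a log2 difference of -0.23 between plasmids. With the letters as a block that difference was -0.24 ± 0.0596 (SE), with an edgeR unadjusted p = 0.00194 and an adjusted p = 0.376.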
